A study of Rattus norvegicus with 72 samples.

Results

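Activating transcription factor 4 (ATF4) is the transcription factor at the centre of the integrated stress response, in which kinases that sense unfolded protein, missing amino acids, haem shortage or double-stranded RNA phosphorylate eIF2 and thereby slow general translation while the Atf4 messenger is translated better. Its known targets include stress regulators and the enzymes that make asparagine, serine and one-carbon units. In the kidney the proximal tubule is a known site of serine synthesis, which it releases to the blood. The 10 genes described here were chosen by name, and each was the row with that symbol (with the highest total, had there been several) in the gene tables of 32545 annotated genes. The regulators are Atf4, Ddit3 and Trib3. The enzymes are Chac1, which breaks down glutathione, the asparagine synthetase Asns, the serine synthesis enzymes Phgdh, Psat1 and Psph, and the mitochondrial folate enzymes Shmt2 and Mthfd2. All 10 were found, with 1 identifier each.

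The RNA came from adult male Sprague-Dawley rats on normal chow. The nephrectomy groups had lost the right kidney, with its artery, vein and ureter tied off before excision. The sham groups were anaesthetised and opened in the same way, and only the pedicle of the right kidney was dissected. At 24, 48 and 72 h after surgery the remaining or left kidney gave 3 kinds of sample: glomeruli and S1 segments of the proximal tubule isolated by microdissection, and whole kidney, with 4 libraries in each of the 18 groups and 72 libraries in all. The segment libraries were amplified (Ovation RNA-seq V2) and read from a single end, and the whole kidney libraries were strand-specific TruSeq libraries read from both ends, so levels in whole kidney and in segments are set side by side only as a description. The labels do not say whether the numbered libraries of a group come from different rats, and p-values cover the spread of the libraries alone, which may be technical.

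The glomerular libraries held between 2643258 and 37408599 gene counts each, those of S1 tubules between 7883861 and 87368807, and those of whole kidney between 10102869 and 55517383. The segments carried their defining markers: the summed level of 6 podocyte markers was 5454 to 19148 CPM (counts scaled to a common library size, with TMM scaling between libraries of a tissue) in glomeruli and 12.1 to 71.5 in S1 tubules, and that of 6 early proximal markers was 5587 to 15492 in S1 tubules and 736 to 3217 in glomeruli. Libraries that stood apart were these. The sham 24 h pair numbered 2 went against its labels, with 53.0 CPM of podocyte and 16773 CPM of early proximal markers in the library labelled glomeruli and 8824 and 1705 CPM in the one labelled S1 (all without TMM scaling), and it is left out of every test unless stated. In whole kidney the 24 h libraries numbered 3 and 4 of both surgeries had the highest shares of mitochondrial counts, between 71.0 and 80.6%, against 36.0 to 66.3% in the other 20, and results at 24 h are given with and without them. S1 nephrectomy 72 h number 2, with 8.05% of its placed reads in genes, had the lowest Phgdh and Shmt2 of the S1 libraries. The glomerular nephrectomy 72 h library numbered 3 had the fewest gene counts, 2643258, and the smallest share of placed reads in genes, 2.92%, of all 72.

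The promoter windows of the members are shown first, since ATF4 is known to bind a composite element, the C/EBP-ATF response element. Windows of 300 bases, from 250 bases before to 50 after the start of each gene, were taken from RefSeq (build GRCr8), where all 10 members matched by symbol. The core letters TGATGNAA, searched on both strands, were in the windows of 2 members, Chac1 and Trib3, against 1332 of 33469 windows in all (3.98%). The E-box CACGTG, which reads the same on both strands, was in the window of 1 member, Atf4, starting 82 bases before the start, against 2148 windows in all (6.42%). The 2 motifs did not overlap in any member. The 250 bases before the start of both genes with the first motif are printed in the direction of transcription, Chac1 from chr3:126795881-126796130 on the plus strand and Trib3 from chr3:161275534-161275783 on the minus strand, with the motif, which lies on the opposite strand in both, in capitals. It begins 167 bases before the start of Chac1 and 21 bases before the start of Trib3.
Chac1: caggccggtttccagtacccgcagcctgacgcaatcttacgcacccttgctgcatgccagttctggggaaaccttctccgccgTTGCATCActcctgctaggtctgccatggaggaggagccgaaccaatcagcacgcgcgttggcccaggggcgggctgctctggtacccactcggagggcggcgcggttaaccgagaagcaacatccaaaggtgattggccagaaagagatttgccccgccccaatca
Trib3: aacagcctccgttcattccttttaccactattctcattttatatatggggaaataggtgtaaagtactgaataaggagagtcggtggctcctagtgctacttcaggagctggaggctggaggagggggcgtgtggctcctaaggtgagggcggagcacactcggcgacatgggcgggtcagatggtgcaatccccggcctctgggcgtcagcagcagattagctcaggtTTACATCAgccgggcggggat
A match is a description of these letters only, and binding was not measured. No source used here names the build behind the deposited counts, and the coordinates belong to the RefSeq table alone.

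In sham rats the serine synthesis enzymes were higher in S1 tubules than in glomeruli, and Mthfd2 was higher in glomeruli. Psat1, the transaminase of the pathway, was at a median of 93.8 RPKM (counts per kilobase of gene, scaled to library size, range 51.4 to 137) in 11 S1 libraries and at 3.04 RPKM (0.102 to 7.03) in 11 glomerular libraries. Phgdh, which takes the first step from 3-phosphoglycerate, was at 22.8 RPKM (10.4 to 40.8) in S1 tubules and 1.27 RPKM (0.401 to 4.21) in glomeruli. Neither gene's ranges overlapped between the segments. Psph, the phosphatase that releases serine, was at 31.9 RPKM (9.62 to 62.8) against 8.04 RPKM (5.28 to 13.0), and Shmt2, which turns serine into glycine in mitochondria, at 46.5 RPKM (26.8 to 96.4) against 11.1 RPKM (6.67 to 24.2). The ranges of Psph overlapped and those of Shmt2 did not. The share of all genes whose ranges lie apart between the segments was not counted, so no trait of these members is read from it. Mthfd2, which carries one-carbon units on in mitochondria, ran the other way, at 0.111 RPKM (0 to 0.389) in S1 tubules and 1.26 RPKM (0.233 to 3.27) in glomeruli, with a median of 4 counts per S1 library.

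With all glomerular and S1 libraries in 1 edgeR fit, these 5 members passed an adjusted p of 0.05 in the sham comparison, against 39.7% of the 24488 genes tested. The log2 difference of glomeruli from S1 tubules was -6.79 ± 0.42 (SE) for Psat1 (adjusted p = 5.86e-19), -5.34 ± 0.39 for Phgdh (2.84e-16), -3.69 ± 0.29 for Psph (2.18e-15) and -3.65 ± 0.28 for Shmt2 (1.1e-15), and 1.77 ± 0.53 for Mthfd2 (0.00616). The median log2 difference of all genes was 0.69 and that of the members -0.01, so that Mthfd2 lay nearer to the median of all genes than to 0. The 5 calls kept their direction in every alternative fit and without any 1 library, and with the sham 24 h pair kept 5 members passed.

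The other members, Atf4, Ddit3, Asns, Chac1 and Trib3, did not pass in that comparison, and for Atf4 and Ddit3 the direction depended on the scaling. Atf4 was at a median of 140 RPKM (87.0 to 206) in glomeruli and 39.7 RPKM (20.4 to 68.9) in S1 tubules. Its ranges did not overlap, but the share of all genes of which this holds was not counted. Ddit3, which encodes the factor CHOP that promotes cell death under lasting stress, was at 19.3 RPKM (8.98 to 39.3) against 7.25 RPKM (2.64 to 12.7). RPKM is relative to all counts, of which mitochondrial genes took a median of 16.1% in glomeruli and 58.5% in S1 tubules. After TMM scaling, the log2 difference was -0.02 ± 0.19 for Atf4 (adjusted p = 0.951) and -0.00 ± 0.30 for Ddit3 (0.997). On the log2 scale of RPKM plus 1, without that scaling, limma gave 1.70 for Atf4 and 1.52 for Ddit3, both past the threshold. The median of all genes moved too, from 0.69 to 0.99 with DESeq2 size factors, where Atf4 was 0.26 and Ddit3 0.25. It was 0.99 on the scale of RPKM plus 1 and 1.89 on that of RPKM plus 0.1, where Atf4 was 1.72 and Ddit3 1.66. Both RPKM settings used the same values and differed in the added number alone, over 22743 genes with a mean of at least 0.5. Both genes lay below the median of all genes except on the scale of RPKM plus 1. Asns was at 3.98 RPKM (0.530 to 5.30) against 0.574 (0.311 to 0.826), and its log2 difference was 0.82 ± 0.45 (adjusted p = 0.141 with edgeR, 0.0298 with DESeq2, 0.0135 with voom), and it passed with limma too. Chac1, an enzyme that breaks down glutathione, was at 0.811 RPKM against 0.0945, and Trib3, a pseudokinase that holds ATF4 activity back, at 0.496 against 0.0289. Their log2 differences were 1.24 ± 0.67 (adjusted p = 0.134) and 1.60 ± 0.88 (0.143). Chac1 passed with DESeq2 (1.52, adjusted p = 0.0217), with voom (1.64, 0.0049) and without S1 sham 72 h number 4 (1.66), and Trib3 passed with voom (1.75, 0.0127) and without S1 sham 72 h number 1 (2.75). In S1 tubules 4 and 5 of the 11 sham libraries had no count of them. Of all genes, DESeq2 called 11960 of 24459, voom 15713 of 24488 and limma 18745 (plus 1) and 18972 (plus 0.1) of 22743. The shares of all genes called without 1 library are not given here. These calls under other settings are thus not read as particular to the members. In edgeR the median of all genes was 0.69, beside 0.82 for Asns.

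**Figure D1:**
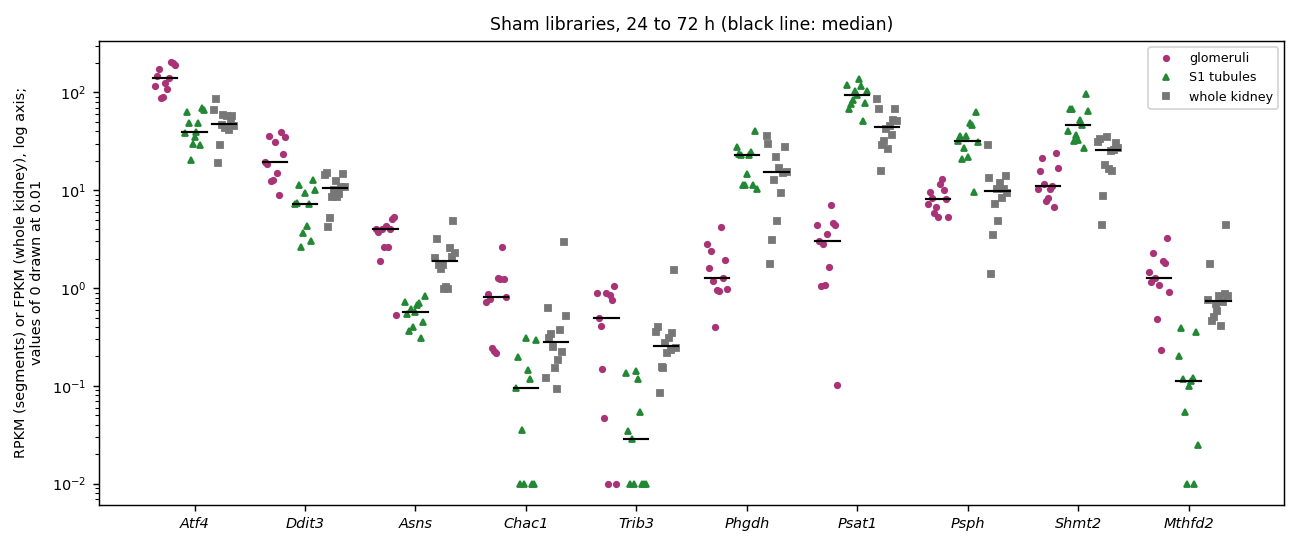
Level per length of each member (RPKM in glomeruli and S1 tubules, FPKM in whole kidney, log axis) in every sham library, with the median of each tissue as a black line and values of 0 drawn at 0.01. The S1 libraries lie above the glomerular ones for Phgdh and Psat1, with no overlap, and below them at the medians of Asns and Mthfd2, where the ranges overlap.

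Within a tissue, the order of the levels was as follows. In S1 tubules the order by median ran from Psat1, Shmt2 (46.5 RPKM), Atf4, Psph and Phgdh to Ddit3, then to Asns, Mthfd2, Chac1 and Trib3. Ddit3 lay above Asns in all 11 libraries, with no overlap of their ranges, and the ranges of every other pair of neighbours in that order overlapped. In glomeruli Atf4 led with no overlap with Ddit3, the next, and Shmt2, Psph, Asns, Psat1, Phgdh, Mthfd2, Chac1 and Trib3 followed, each overlapping its neighbour. Phgdh (1.27 RPKM) and Mthfd2 (1.26 RPKM) were not told apart there, with Phgdh the higher in 6 of 11 libraries. In whole kidney, where the authors' unit is FPKM, Atf4 (47.9) and Psat1 (44.0) led, followed by Shmt2 (25.6), Phgdh (15.2), Ddit3 (10.4), Psph (9.88), Asns (1.89), Mthfd2 (0.742), Chac1 (0.281) and Trib3 (0.258), and the ranges of all neighbours overlapped over 12 sham libraries. The ratio of Psat1 to Phgdh within a library had a median of 4.77 in S1 tubules, 1.89 in glomeruli and 3.01 in whole kidney.

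The counts of the neighbouring pathways in the sham comparison are to be read beside all 24488 genes, of which 5168 were higher and 4553 lower in glomeruli, 39.7% in all, with a median log2 difference of 0.69. Of 14 other enzymes of serine synthesis and folate one-carbon metabolism, 8 were lower and 2 higher in sham glomeruli than in S1 tubules, with a median log2 difference of -1.83. Cytosolic enzymes were among the lower ones: Mthfd1, the trifunctional folate enzyme (-3.91 ± 0.27), Shmt1 (-4.86 ± 0.41) and Aldh1l1, which oxidises formyl-folate (-5.53 ± 0.39). The 2 higher ones were mitochondrial, Mthfd1l (2.75) and Mthfd2l (3.00), the latter a relative of Mthfd2. Of 18 genes of serine and glycine breakdown tested, 14 were lower in glomeruli and none passed in the other direction, with a median of -3.84, for example Gldc of the glycine cleavage system (-7.22 ± 0.39) and Gatm, which uses glycine for creatine synthesis (-6.46 ± 0.29).

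Other known ATF4 targets were split, with 13 of 27 higher and 8 lower in glomeruli and a median of 1.05. The amino acid transporters Slc1a4 (4.09), Slc7a5 (3.48) and Slc7a1 (2.98) were among the higher, and Cbs (-6.39 ± 0.34), Cth (-5.82 ± 0.46) of transsulfuration and Slc3a2 (-3.41 ± 0.25), the heavy chain of amino acid exchangers, among the lower. Of 20 cytosolic aminoacyl-tRNA synthetases 8 were lower and none passed in the other direction (median -0.53), led by Aars (-1.91 ± 0.25). All 7 mitochondrial stress genes tested were lower in glomeruli (median -1.91), for example the chaperone Hspd1 (-3.65 ± 0.22). Of 10 genes of the kinases, eIF2 and phosphatases 3 were higher and 2 lower, with Ppp1r15a, which brings the phosphatase to eIF2, at 2.22 ± 0.31, and of 18 genes of the ATF6 and XBP1 arms 2 were higher and 6 lower. The shares called in either direction among the tRNA synthetases, the kinase genes and the ATF6 and XBP1 arms lay near that of all genes, and with the sham 24 h pair kept the calls in these lists were 5, 3 and 3.

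**Figure D2:**
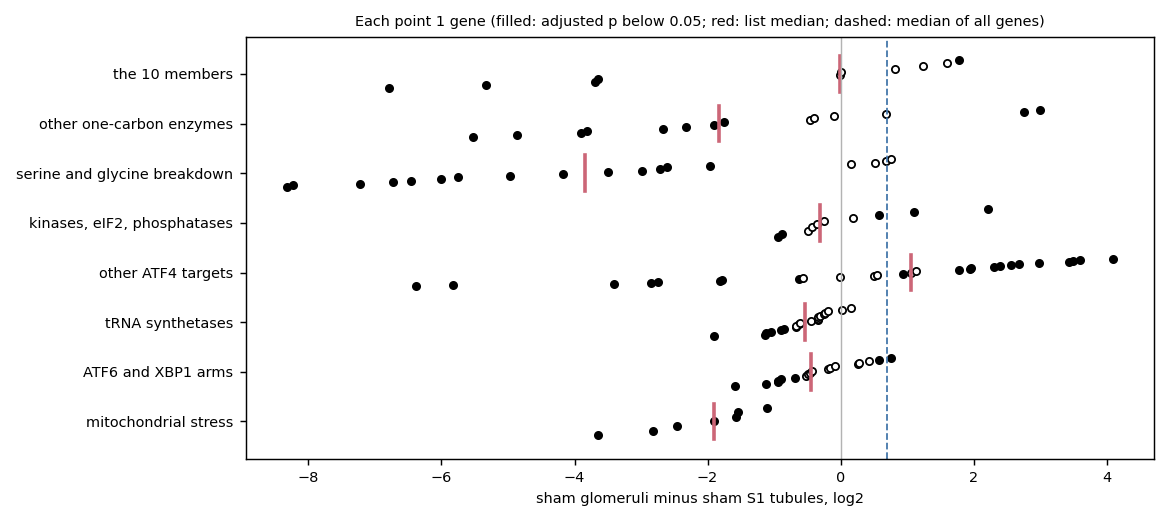
Log2 difference of sham glomeruli from sham S1 tubules for each gene of the members and of 7 gene lists (filled where adjusted p was below 0.05), with the list median in red and the median of all genes, 0.69, dashed. Psat1, at -6.79, is the lowest member, and the members' median lies at -0.01.

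After nephrectomy, no member passed the test in whole kidney at any time when all libraries were used, and Phgdh, Psat1 and Psph leaned lower while Mthfd2 leaned higher. At 24 h 0 of 10 members passed, against 0.236% of 15678 genes, and 4 were at an unadjusted p under 0.05, against 12.9% of genes. At 48 h the counts were 0 (0% of genes) and 0 (10.3%), and at 72 h 0 (0.00638%) and 2 (5.2%). With the 3 times averaged 0 members passed (2.86% of genes) and 4 did so unadjusted (17.5%). No member passed in the test of a difference between the times (0.0191% called). DESeq2 and limma called no member in any of these 5 tests. Voom with sample weights called 1, Psat1, at 72 h and over the mean, where it called 596 and 1884 of 15678 genes. In bulk samples fewer cells of a type and less RNA per cell cannot be told apart.

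Phgdh in whole kidney at 24 h was 54.2, 33.8, 7.06 and 9.57 CPM in the sham libraries numbered 1 to 4 and 8.93, 8.97, 17.8 and 4.85 CPM in the nephrectomy libraries. The sham libraries numbered 1 and 2 stood above all others at that time, and numbers 3 and 4 lay within the nephrectomy range. The log2 fold change was -1.42 ± 0.49 (adjusted p = 0.22), and over the mean of the times -0.77 ± 0.28 (adjusted p = 0.14). At 72 h the nephrectomy libraries held 13.5 to 17.8 CPM and the sham libraries 16.0 to 40.7 CPM, and every nephrectomy library was below the sham mean at each of the 3 times. Psph followed the same libraries, with 30.3, 10.4, 3.79 and 7.23 CPM in sham and 5.79, 5.97, 6.94 and 3.83 CPM after nephrectomy at 24 h. Its log2 fold change was -1.21 ± 0.40 at 24 h (adjusted p = 0.198) and -0.60 ± 0.23 over the mean (0.164), and the 24 h value was 0.08 with voom sample weights. Without sham 24 h number 1, Psph was -0.37 at 24 h and -0.32 over the mean, and Phgdh -0.80 and -0.56.

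Of all members and times in whole kidney, the groups separated for Psat1 at 72 h alone, without leaving out a library. The share of all genes that separate in this way was not counted, so no trait of Psat1 is read from it. Psat1 was 66.5, 82.6, 108 and 84.5 CPM in sham and 59.7, 63.1, 60.1 and 61.2 CPM after nephrectomy, so that all 4 nephrectomy libraries lay below all 4 sham libraries. The log2 fold change was -0.48 ± 0.21 (adjusted p = 0.898), and over the mean of the times -0.32 ± 0.12 (adjusted p = 0.168; 0.0432 without nephrectomy 24 h number 3 and 0.0492 with voom). Shmt2 was 54.3, 43.5, 20.2 and 31.0 CPM in sham and 29.1, 28.2, 37.0 and 25.2 CPM after nephrectomy at 24 h, with overlap. Its log2 fold change was -0.32 ± 0.23 at 24 h (adjusted p = 0.576), 0.18 with voom sample weights, and -0.16 ± 0.13 over the mean (adjusted p = 0.565). Without sham 24 h number 1 these became -0.09 at 24 h and -0.08 over the mean, and Psat1 was -0.08 at 24 h and -0.25 over the mean.

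Without the 24 h libraries numbered 3 and 4, which leaves 2 libraries of each surgery at that time, the 4 enzymes passed at 24 h. Phgdh fell by 2.30 ± 0.43 on the log2 scale (adjusted p = 0.00269), Psph by 1.79 ± 0.39 (0.00638), Shmt2 by 0.78 ± 0.23 (0.0289) and Psat1 by 0.73 ± 0.23 (0.0388), while 16.4% of 16122 genes were called. In the same fit 0.0248% of genes and no member were called at 48 h and 0.0124% and no member at 72 h. Over the mean of the times 3 members were called, Phgdh (-1.06 ± 0.20, adjusted p = 0.00753), Psph (-0.79 ± 0.18, 0.0192) and Psat1 (-0.46 ± 0.11, 0.0226), against 4.87% of genes, and Phgdh alone of the members passed in the test of a difference between times (adjusted p = 0.0306), against 11.4% of genes. With 1 library left out, 2 members passed at 24 h and over the mean, Phgdh and Psph, when that library was sham 24 h number 3. The share of all genes called in that fit is not given here, and these calls are not read as particular to the members.

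Other measures moved with these values. In the 24 h libraries numbered 1 and 2, the mitochondrial share of counts was 49.2 and 36.0% in sham and 66.3 and 64.6% after nephrectomy. Between these same 2 pairs, the nephrectomy libraries held more of the summed markers of podocytes (371 and 374 CPM against 170 and 297), endothelium (340 and 324 against 186 and 254), mesangium and smooth muscle (197 and 199 against 111 and 178) and late proximal tubule (2487 and 2701 against 1879 and 1670). The same held for the thick ascending and distal limb (4103 and 4236 against 2791 and 3018) and the collecting duct (335 and 342 against 259 and 279). They held less of the early proximal (3938 and 4040 against 4978 and 7442) and immune markers (210 and 199 against 436 and 310). The summed level of 6 early proximal tubule markers at 24 h was 4978 to 7442 CPM in sham and 3938 to 4547 CPM after nephrectomy, with no overlap. At 48 h it was 4087 to 5887 against 4039 to 5403 CPM, and at 72 h 5268 to 7112 against 4310 to 5245 CPM. None of these 6 markers passed the test over the mean of the times with all libraries, all 6 were below 0, and their median log2 fold change was -0.59. Without the 24 h libraries numbered 3 and 4, 4 of the 6 were lower at 24 h and 4 over the mean. The late proximal markers had a median of -0.01 over the mean, with 2 of 5 above 0, and over all 4 libraries summed to 1670 to 3155 CPM in sham and 2302 to 2951 CPM after nephrectomy at 24 h, with overlap. The 6 immune markers summed to 310 to 436 CPM in sham and 199 to 272 CPM after nephrectomy at 24 h, also with no overlap. No marker of these lists was without a count in all libraries of a group. The part of the mitochondrial share and of the cell type markers in the values of Phgdh, Psat1, Psph and Shmt2 was not tested.

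**Figure D3:**
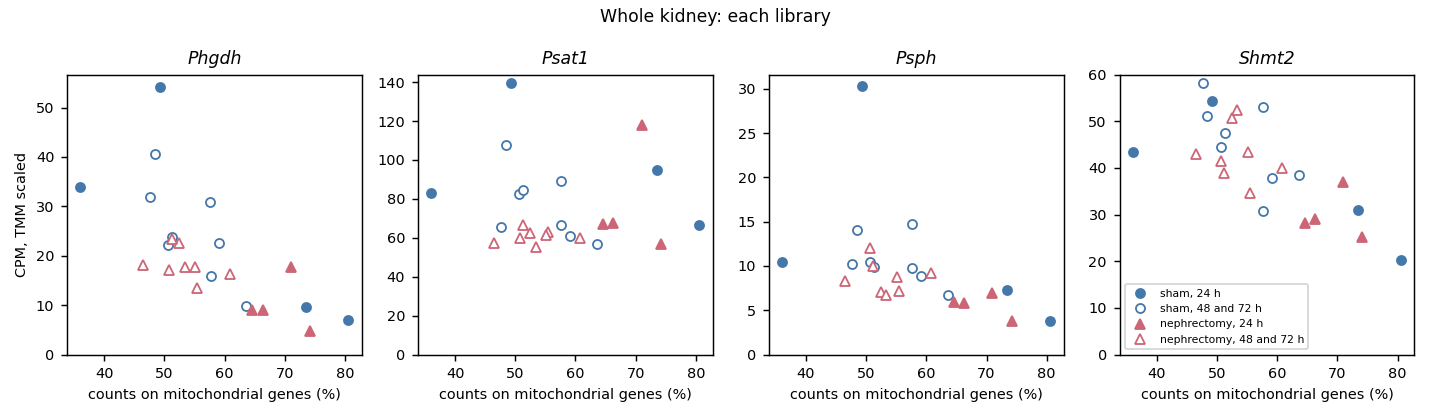
CPM of the 4 enzymes (TMM scaled) against the share of counts on mitochondrial genes in each of the 24 whole kidney libraries, circles for sham and triangles for nephrectomy, filled at 24 h. Sham 24 h numbers 1 and 2, at 49.2 and 36.0%, hold 54.2 and 33.8 CPM of Phgdh, and the sham 24 h libraries numbered 3 and 4, at 80.6 and 73.5%, hold 7.06 and 9.57 CPM.

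Asns and Mthfd2 at 24 h were high in 1 library. Asns was 3.53, 4.06, 7.78 and 5.44 CPM in sham and 3.34, 4.00, 39.3 and 5.23 CPM after nephrectomy. Its log2 fold change was 1.23 ± 0.55 (adjusted p = 0.355) and became -0.32 without nephrectomy number 3. That library had 10102869 gene counts, the fewest in whole kidney, and the highest share of placed reads without a unique place, 93.9%. Mthfd2 was 1.34, 2.29, 2.07 and 1.76 CPM in sham and 1.60, 2.00, 16.6 and 3.41 CPM after nephrectomy, a log2 fold change of 1.53 ± 0.63 (adjusted p = 0.316) that was 0.31 without nephrectomy number 3 and -0.04 without the 24 h libraries numbered 3 and 4. At 48 h Mthfd2 was 1.42, 0.970, 1.92 and 0.858 CPM in sham and 1.59, 2.08, 2.64 and 4.30 CPM after nephrectomy, and at 72 h 1.41, 1.49, 7.45 and 1.47 against 3.22, 2.65, 2.88 and 4.69 CPM. The 4 nephrectomy libraries at 72 h thus lay above 3 of the 4 sham libraries. Its change over the mean of the times was 0.91 ± 0.35 (adjusted p = 0.173), 0.51 without nephrectomy 24 h number 3 (adjusted p = 0.383) and 1.26 without sham 72 h number 3 (adjusted p = 0.04), the library with the 7.45 CPM.

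The same 2 libraries were high in Chac1 and Trib3. Nephrectomy 24 h number 3 held 2.17 CPM of each, and sham 72 h number 3 held 3.79 CPM of Chac1, 2.44 CPM of Trib3 and 8.08 CPM of Asns, against 0.289 to 0.691, 0.401 to 0.553 and 3.49 to 4.98 CPM in the other 3 sham libraries at 72 h. The log2 fold change of Chac1 over the mean of the times was -0.65 ± 0.44 (adjusted p = 0.463), that of Trib3 0.04 ± 0.35 (0.968) and that of Asns 0.49 ± 0.31 (0.434). Without sham 72 h number 3 Chac1 was -0.18 and Trib3 0.40, and without nephrectomy 24 h number 3 they were -0.92 and -0.23, and Asns -0.02. Atf4 itself was nearly level, at 59.4 to 79.5 CPM in sham and 65.8 to 75.9 CPM after nephrectomy at 24 h, and its log2 change over the mean was -0.07 ± 0.06 (adjusted p = 0.567, 95% interval -0.20 to 0.05). That of Ddit3 was 0.09 ± 0.12 (adjusted p = 0.754).

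**Figure D4:**
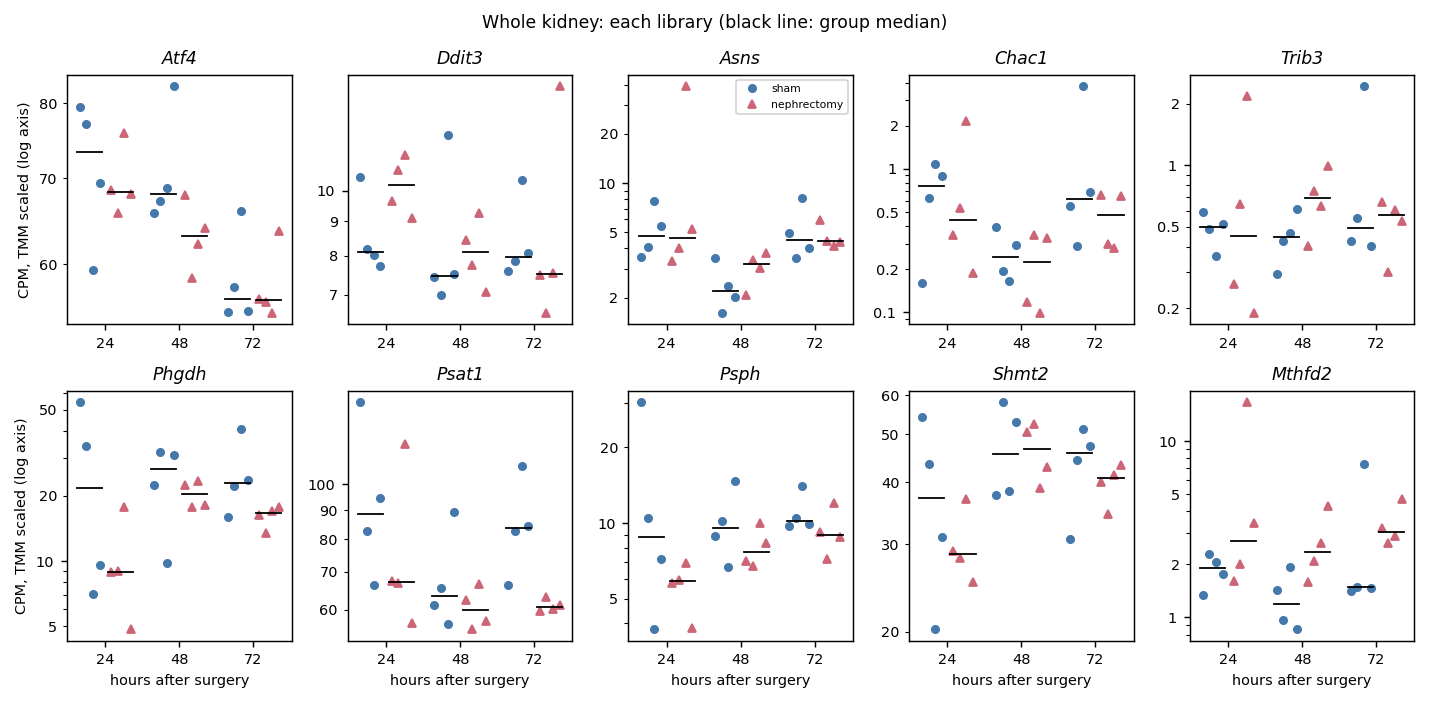
CPM of each member (TMM scaled, log axis) in every whole kidney library by hours after surgery, blue circles for sham and red triangles for nephrectomy, with group medians as black lines. Asns and Mthfd2 reach 39.3 and 16.6 CPM in 1 nephrectomy library at 24 h, and Psat1 at 72 h is at or below 63.1 CPM after nephrectomy and at or above 66.5 CPM in sham.

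In glomeruli no member passed after nephrectomy. Of 22405 genes 0% were called at 24 h, 0% at 48 h, 0% at 72 h and 0% over the mean, and 0.00446% in the test of a difference between times. At an unadjusted p under 0.05 the count was 1 member, Atf4, at 24 h (0.919% of genes) and 0 otherwise. The shares of genes were 1.36% at 48 h, 2.9% at 72 h, 2.11% over the mean and 1.04% for the difference between times. DESeq2, limma and voom called no member. Atf4 at 24 h was 142, 191 and 231 CPM in 3 sham libraries and 231, 209, 404 and 334 CPM after nephrectomy, with overlap, a log2 fold change of 0.65 ± 0.28. It was -0.07 ± 0.26 at 48 h and 0.19 ± 0.26 at 72 h, and 0.26 ± 0.15 over the mean (95% interval -0.04 to 0.56). Ddit3 at 24 h was 14.4, 14.7 and 28.8 CPM in sham and 25.6, 15.5, 41.0 and 47.0 CPM after nephrectomy, and its log2 fold change over the mean was 0.40 ± 0.25. For the other members the change over the mean ran from -0.27 ± 0.47 for Chac1 to 0.44 ± 0.37 for Mthfd2, with -0.22 ± 0.75 for Trib3, -0.03 ± 0.28 for Asns, -0.01 ± 0.35 for Phgdh, 0.27 ± 0.39 for Psat1, 0.11 ± 0.21 for Psph and 0.08 ± 0.21 for Shmt2. Without nephrectomy 72 h number 3, the library with the fewest reads in genes, Phgdh was -0.25, Psat1 0.17 and Shmt2 0.14. With the sham 24 h pair kept, Psat1 was at -1.43 and no member passed.

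In S1 tubules, where the serine synthesis enzymes were higher than in glomeruli, they did not pass either. Trib3 was too low for the test there, which leaves 9 members. Of 18372 genes 0% were called at 24 h, 0% at 48 h, 0% at 72 h and 0% over the mean, and 0.0109% in the test of a difference between times. No member reached an unadjusted p under 0.05 in any of these tests. The shares of genes that did were 0.729% at 24 h, 1.96% at 48 h and 13.2% at 72 h. They were 2.54% over the mean and 7.15% for the difference between times. DESeq2, limma and voom called no member. Phgdh at 72 h was 41.2, 35.6, 50.6 and 24.1 CPM in sham and 50.8, 2.02, 34.3 and 31.4 CPM after nephrectomy, where the 2.02 belongs to the library with few reads in genes. Over the mean of the times the log2 fold change was -0.05 ± 0.28 for Phgdh (95% interval -0.60 to 0.50), 0.20 ± 0.19 for Psat1 (-0.18 to 0.57), 0.34 ± 0.23 for Psph (-0.11 to 0.80) and 0.06 ± 0.24 for Shmt2 (-0.40 to 0.53).

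Of all members and times in S1 tubules, the groups separated for Mthfd2 at 72 h alone, at few counts. The share of all genes that separate in this way was not counted, so no trait of Mthfd2 is read from it. Mthfd2 was 0.235, 0, 0.511 and 0.0658 CPM in sham and 0.569, 1.01, 0.641 and 0.521 CPM after nephrectomy, so that all nephrectomy libraries lay above all sham libraries, with a log2 fold change of 1.70 ± 1.12 (adjusted p = 0.539). Over the mean of the times the change was 0.73 ± 0.66, beside -0.07 ± 0.17 for Atf4, 0.19 ± 0.31 for Ddit3, 0.25 ± 0.58 for Asns and 0.04 ± 0.89 for Chac1. The nephrectomy effect was not shown to differ between glomeruli and S1 tubules for any of the 10 members. The count called was 0 (0% of 24488 genes), and 0 were at an unadjusted p under 0.05 (2.54% of genes). DESeq2, limma and voom called none. The difference of the effects for Phgdh was -0.01 (95% interval -0.87 to 0.84).

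**Figure D5:**
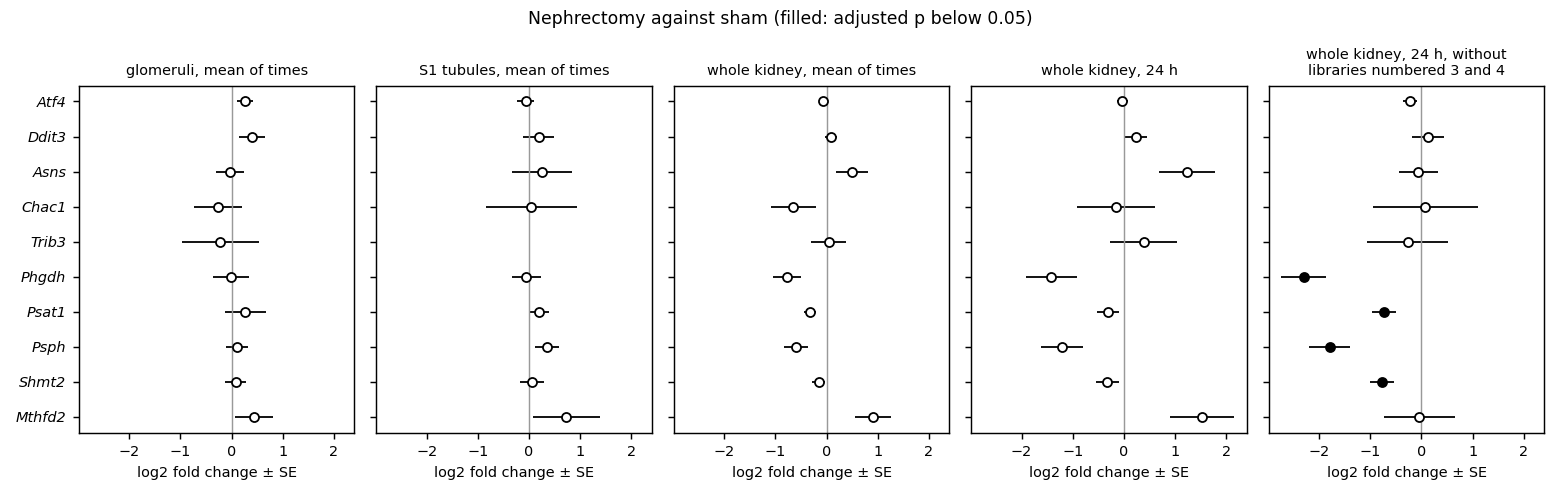
Log2 fold change of nephrectomy against sham with its SE for each member, over the mean of the times in glomeruli, S1 tubules and whole kidney, and in whole kidney at 24 h with and without the libraries numbered 3 and 4 (filled where adjusted p was below 0.05). Filled points are in the last panel alone: Phgdh at -2.30, Psph at -1.79, Shmt2 at -0.78 and Psat1 at -0.73.

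Among the surrounding pathways, the ATF6 and XBP1 arms of the endoplasmic reticulum stress response, singled out after their values were seen, leaned higher in glomeruli at 24 h. None of the 18 genes passed, 8 did so at an unadjusted p under 0.05 (0.919% of all genes), and all 18 were above 0, with a median log2 fold change of 0.93 against 0.02 for all genes. In the same groups, with 3 sham libraries, the summed tubular injury markers were 91.0 to 111 CPM in sham and 110 to 189 CPM after nephrectomy, the early proximal markers at medians of 893 and 1506 CPM and the podocyte markers at 12293 and 15861 CPM, and their part in these values was not tested. The 4 with the smallest p were the chaperone Hspa5 (1.55 ± 0.51), Edem1, which helps discard misfolded protein (0.79 ± 0.27), Manf (1.47 ± 0.54) and the chaperone Hsp90b1 (1.10 ± 0.41). Averaged over the times all 18 were again above 0, with a median of 0.39 and 5 at an unadjusted p under 0.05 (2.11% of all genes), among them Creld2 (0.84 ± 0.31). In S1 tubules 16 of the 18 were above 0 at 24 h (median 0.33) with 1 at an unadjusted p under 0.05 (0.729% of all genes), and in whole kidney 15 of 18 (median 0.12) with 2 (12.9%). Atf3, a stress factor and ATF4 target, was at 1.11 ± 0.47 in glomeruli over the mean, the only 1 of 27 other ATF4 targets at an unadjusted p under 0.05 there.

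In whole kidney, genes of serine and glycine breakdown leaned lower over the mean of the times: 16 of 18 were below 0, the median was -0.23, 7 reached an unadjusted p under 0.05 and 1 passed, against 17.5 and 2.86% of all genes. That gene was Dmgdh, the mitochondrial dimethylglycine dehydrogenase, which fell by 0.33 ± 0.09 (adjusted p = 0.0488). Dao, the D-amino acid oxidase (-0.28 ± 0.08), Agxt2 (-0.57 ± 0.17) and Grhpr (-0.40 ± 0.12) had the next smallest p. Of 10 genes of the kinases, eIF2 and phosphatases 1 passed, Impact, an inhibitor of the kinase GCN2, which fell by 0.31 ± 0.08 (adjusted p = 0.0453). Both calls were lost when any 1 of 16 libraries for Dmgdh or 20 for Impact was left out, of 24, and without the 24 h libraries numbered 3 and 4 their adjusted p was 0.0702 and 0.0339. Dmgdh also missed the threshold with the replicate number as a block (adjusted p = 0.0569), Impact with voom (0.0554), and both with no filter on low counts (0.0674 and 0.0627), at 48 and 72 h only (0.239 and 0.347) and with limma. None of the 14 other one-carbon enzymes passed (2 unadjusted, median -0.03), with Mthfd1 at -0.26 ± 0.08 (adjusted p = 0.0926); without the 24 h libraries numbered 3 and 4 Mthfd1 passed, at -0.35 ± 0.09 (adjusted p = 0.0271). None of 27 other ATF4 targets (6 unadjusted), 20 tRNA synthetases (3), 18 genes of the ATF6 and XBP1 arms (2) or 8 mitochondrial stress genes (0) passed, and the unadjusted shares of the ATF4 targets, the synthetases and the ATF6 and XBP1 arms lay near the 17.5% of all genes. Early proximal tubule markers leaned the same way as the breakdown genes, as given above, and their part in these values was not tested.

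Across libraries of 1 group in whole kidney some members varied together. Over 20 libraries (without the 24 h libraries numbered 3 and 4), with the group mean removed from log2 CPM, Pearson's r between pairs of Phgdh, Psat1, Psph and Shmt2 ran from 0.44 (Psph and Shmt2) to 0.83 (Psat1 and Psph). Between pairs of Asns, Chac1, Trib3 and Mthfd2 it ran from 0.55 (Asns and Trib3) to 0.76 (Asns and Chac1), and sham 72 h number 3 is high in all 4. Between members of the first 4 and the second 4, r ran from -0.29 (Asns and Shmt2) to 0.44 (Trib3 and Psat1), and Trib3 gave 0.38 to 0.44 with each of the serine enzymes and Shmt2, so that the members did not divide cleanly. Ddit3 was closest to Mthfd2, at 0.46. Atf4 was closest to Psat1 among the members, at 0.65, and to Asns it gave -0.00. Of 13637 genes with a plain symbol, those most like Atf4 over these libraries were Stc2 (r = 0.81), Uchl5 (0.78) and Tars (0.76), and those most like Phgdh were Arsb (0.91), Adam22 (0.90) and Rxrg (0.89). These are descriptions over libraries that share depth and mitochondrial share, with no test. The spread of r over all pairs of genes was not counted, so no trait of the members is read from these values.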

How the data were processed

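RNA-seq gene counts were deposited for 72 libraries. Per the submitters' processing notes, Trimmomatic 0.32, STAR 2.4.0.1, SAMtools and HTSeq were used. The genome build, annotation and strand setting were not given in the labels used. The RPKM values of the segments and the FPKM values of whole kidney, deposited in separate tables, are proportional to the deposited counts and relative to all gene counts, mitochondrial genes included.

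Counts were fitted with edgeR 4.0.16 (R 4.3.3) by its quasi-likelihood test, with TMM scaling and genes kept by filterByExpr (minimum count 10). The 5 HTSeq summary entries were left out. Each tissue had its own fit of surgery and time, glomeruli and S1 tubules shared another, and p-values were Benjamini-Hochberg adjusted over all genes tested at 0.05. Each SE was taken from the fold change and its F statistic (log2 value over the root of F). The fits were tried on simulated counts for whole kidney alone, with a fixed spread, and the mean of the times alone was checked. The segment fits and the single times were not tried in this way. The sham 24 h segment pair numbered 2 was left out. Libraries were grouped by their labels. No 2 libraries of a group agreed within sampling noise. Between whole kidney and segments no test was made.

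Members and gene lists were chosen with earlier results of these data known, and the genes named from each list were those with the smallest p over the mean of the times or in the sham comparison (up to 4). Mthfd1l, Mthfd2l, Slc1a4, Slc7a5, Slc7a1 and the genes of the ATF6 and XBP1 arms at 24 h were named after their values were seen. Alternatives were DESeq2 1.42.0, its size factors, limma 3.58.1 on log2 of RPKM or FPKM plus 1 or 0.1 (mean of at least 0.5), voom with sample weights, no filter, the replicate block, no mitochondrial genes and left-out libraries.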

Additional observations from a re-analysis of the deposited data

Results flagged for a closer look

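In 19 of 160 groups of 4 libraries 1 library stood apart from the other 3 (Dixon's criterion at 95%). Chance alone gives about 1 in 20 where values are spread normally, which CPM values need not be. Where the other 3 libraries all held 0, as in groups of Trib3 in S1 tubules, any count meets the criterion. The 19 are thus not read as an excess. In whole kidney the nephrectomy 24 h library numbered 3 held 39.3 CPM of Asns (the other 3 held 3.34 to 5.23) and 16.6 CPM of Mthfd2 (1.60 to 3.41). The sham 72 h library numbered 3 held 7.45 CPM of Mthfd2 (1.41 to 1.49), 3.79 CPM of Chac1 (0.289 to 0.691) and 2.44 CPM of Trib3 (0.401 to 0.553). Nephrectomy 72 h number 4 held 14.3 CPM of Ddit3 (6.58 to 7.54) and 63.6 CPM of Atf4 (55.0 to 56.4). Nephrectomy 72 h number 1 held 5.99 CPM of Asns (4.12 to 4.43), and sham 48 h number 3 held 12.1 CPM of Ddit3 (at most 7.52).

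In glomeruli the sham 48 h library numbered 4 held 2.34 CPM of Chac1 (0.333 to 0.436). In S1 tubules sham 72 h number 4 held 120 CPM of Atf4 (64.0 to 72.3), nephrectomy 72 h number 1 held 323 CPM of Psat1 (168 to 187) and sham 48 h number 4 held 104 CPM of Shmt2 (70.4 to 75.5). S1 sham 72 h number 2 was low in Psph, at 20.9 CPM (49.4 to 53.6), and S1 nephrectomy 48 h number 4 in Mthfd2, at 0.203 CPM (0.371 to 0.396). Trib3 in S1 tubules was 0.248 CPM in nephrectomy 24 h number 2, 0.0419 in nephrectomy 48 h number 3, 0.0656 in nephrectomy 72 h number 1 and 0.0988 in sham 72 h number 1, where the others held 0 to 0.027.

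The sham 24 h pair numbered 2, left out of the tests, lay outside the other 11 sham libraries of its labelled segment for 9 members. In the library labelled glomeruli the level was 22.9 RPKM for Phgdh (at most 4.21 in the others), 97.9 for Psat1 (7.03), 23.6 for Psph (13.0) and 43.3 for Shmt2 (24.2). In the library labelled S1 it was 139 RPKM for Atf4 (68.9), 28.9 for Ddit3 (12.7), 3.54 for Asns (0.826), 0.499 for Chac1 (0.306) and 1.60 for Mthfd2 (0.389).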

How the results depend on the processing

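The number of members called after nephrectomy in glomeruli and S1 tubules was 0 under every alternative and without any 1 library. In whole kidney it was 0 of 10 in each test with all libraries, and without the 24 h libraries numbered 3 and 4 it was 4 at 24 h, 3 over the mean of the times and 1 for the difference between times. It was 1 at 72 h and 1 over the mean with voom, and 1 over the mean without both libraries highest in Asns and Mthfd2, a setting chosen after seeing the data. With 1 library left out it ran from 0 to 2 at 24 h and from 0 to 2 over the mean, in fits whose shares of all genes called are not given here. In the sham comparison of the segments it was 5, and 7 with DESeq2, 8 with limma on RPKM plus 1, 8 with RPKM plus 0.1 and 8 with voom. The cause of these unlike counts was not tested, and they are to be read beside the totals of all genes below. Over all genes, between 13812 and 16122 of them tested, the whole kidney mean gave 448 calls. The count was 865 with DESeq2, 0 with limma at either pseudocount, 1884 with voom and 154 at 48 and 72 h only. It was 254 without both libraries named and 785 without the 24 h libraries numbered 3 and 4. At 24 h there were 37, 307 with DESeq2, 1 with limma, 110 with voom, 56 with no filter and 2645 without those libraries, at 72 h 1 and 596 with voom, and in S1 tubules at 72 h 0 and 744 with DESeq2. The sham comparison gave 9721 of 24488 genes tested, and 11960 of 24459 with DESeq2. It gave 18745 and 18972 of 22743 with limma and 15713 of 24488 with voom.

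Values near 0 changed sign. In the sham comparison Atf4 was 0.26 with DESeq2 and 0.26 with its size factors, 1.72 and 1.70 with limma, 0.039 with no filter, 0.026 with the sham 24 h pair kept and 5.5e-05 without mitochondrial genes. Ddit3 was 0.25 with DESeq2 and 0.25 with its size factors, 1.66 and 1.52 with limma, 0.049 with no filter and 0.0038 without mitochondrial genes. Over the mean of the times in glomeruli, Phgdh was 0.032 with DESeq2, 0.044 with its size factors, 0.0014 with no filter and 0.0013 without mitochondrial genes, and Asns 0.00098 with no filter and 0.011 without mitochondrial genes. With the pair kept, Psat1 was -1.43, Psph -0.48 and Shmt2 -0.50 in glomeruli, and Chac1 -0.041 and Phgdh 0.084 in S1 tubules. In S1 tubules Asns was -0.13 with limma on RPKM plus 0.1, -0.67 with voom and -0.18 without the libraries of the smallest gene share, where Atf4 was 0.0070 and Phgdh 0.075; Shmt2 was -0.0066 and -0.0012 with limma, and Chac1 -0.012 without mitochondrial genes. In whole kidney voom gave Asns -0.14, Shmt2 0.017 and Trib3 -0.019 over the mean, and Asns -0.71, Psph 0.083 and Shmt2 0.18 at 24 h. Without the 24 h libraries numbered 3 and 4 Asns was -0.059 and Mthfd2 -0.040 at 24 h and Trib3 -0.18 over the mean, where it was -0.13 at 48 and 72 h only. Without both libraries highest in Asns and Mthfd2, Asns was -0.32 at 24 h.

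With 1 library left out, values over the mean ran in S1 tubules from -0.18 to 0.40 for Asns, -0.13 to 0.016 for Atf4, -0.15 to 0.25 for Chac1, -0.18 to 0.076 for Phgdh and -0.014 to 0.18 for Shmt2. In glomeruli they ran from -0.10 to 0.047 for Asns, -0.47 to 0.16 for Chac1, -0.25 to 0.18 for Phgdh, -0.070 to 0.21 for Shmt2 and -0.63 to 0.38 for Trib3. In whole kidney they ran from -0.024 to 0.60 for Asns (-0.32 to 1.57 at 24 h), -0.020 to 0.16 for Ddit3, -0.92 to -0.18 for Chac1 and -0.23 to 0.40 for Trib3, and in the sham comparison from -0.19 to 0.052 for Atf4 and -0.25 to 0.12 for Ddit3.

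With the replicate number as a block, 0 members were called after nephrectomy and 5 in the sham comparison, whole kidney at 24 h had 18 calls over all genes, and in glomeruli Asns was 0.0032, Phgdh 0.067 and Trib3 0.015. The block ended the call of Dmgdh in whole kidney (adjusted p = 0.0569). The correlation of same-numbered deviations was over 0.1 in 6 of 12 pairs in whole kidney, 2 of 11 in glomeruli, 5 of 11 in S1 tubules and 12 of 23 between glomeruli and S1 tubules, so the numbers were not taken to pair the libraries of any tissue as a whole. All 4 pairs of whole kidney at 72 h were over 0.1, and there 1 gene was called with and without the block. Precision in S1 tubules was limited by low counts of Asns, Chac1, Trib3 and Mthfd2, and Trib3 had no test there.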
